A study of Mus musculus with 12 samples.

Results

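The Hox genes and the TALE homeobox genes, the class that encodes the DNA-binding partners of HOX proteins, were examined in messenger RNA profiles of EMRK1184luc cells. Members were taken by gene symbol: 38 genes of the Hoxa, Hoxb, Hoxc and Hoxd clusters and 10 TALE genes of the Meis, Pbx, Pknox and Tgif families, 48 of the 26305 genes with an identifier in the count table. EMRK1184luc is a B cell lymphoma line from 1 female mouse with an Eµ-Myc transgene, in which the heavy chain enhancer Eµ switches on Myc in B cells; it also carries a lentiviral luciferase construct, and all 12 libraries come from this single line. The cells received 5 µM WM-1119, which blocks the lysine acetyltransferases KAT6A and KAT6B of the MYST family, for 3 days or for 6 days, or DMSO, the solvent, for the same times. Each of the 4 groups held 3 biological replicates. The labels name no culture, day or batch for these, so p-values measure the spread between the samples as prepared.

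Library totals ran from 18266488 to 28136250 counts with WM-1119 and 17863138 to 21638773 with DMSO at 3 days, and from 14691369 to 17509662 with WM-1119 and 22749501 to 41607926 with DMSO at 6 days. Of 14 B cell markers 13 exceeded 1 CPM in each group, and their summed level was 4544 to 4832 CPM over all libraries. Ms4a1, the gene for CD20, was at 0 in every library except for 1 count in WM-1119 replicate 2 of 6 days. CPM are counts relative to the library total, which was scaled by a TMM factor that adjusts for composition. Transcripts of fibroblast genes were present in some libraries. Col1a1, which encodes a collagen chain made by fibroblasts, exceeded 1 CPM in 5 of the 12 libraries, WM-1119 replicate 2 at 3 days, WM-1119 replicates 1 and 2 at 6 days and DMSO replicates 1 and 2 at 6 days, and results that changed without these libraries are given both ways.

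Hox genes encode transcription factors that specify position along the body axis, and within a cluster their order on the chromosome follows the order in which they are used. In blood formation they are active in stem and progenitor cells and are normally silenced as cells mature, and several drive leukaemia when they stay on. HOX proteins bind DNA with PBX and MEIS partners, PKNOX proteins compete with MEIS for PBX, and TGIF proteins act mainly as repressors, among others of SMAD signalling. KAT6A is known from mouse embryos to maintain Hox expression.

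Expression of the Hox genes was concentrated in the Hoxb cluster on chromosome 11. The 10 Hoxb members collected 55710 counts over the 12 libraries, against 236 for the 9 Hoxc members, 35 for the 10 Hoxa members and 6 for the 9 Hoxd members. Of the 48 members 34 had at least 1 count and 14, all of them Hox genes, had none. A filter on low counts passed 15 members, the 7 Hoxb genes Hoxb3 to Hoxb9, Hoxc4 and the 7 TALE genes Meis2, Pbx2, Pbx3, Pbx4, Pknox1, Tgif1 and Tgif2. The other 33 members were not tested, and 19 of those had some counts. The filter keeps a gene that is high in a single group, so Hoxc4 passed through its WM-1119 libraries alone. Meis1, the partner of HOXA9 in leukaemia, had 1 count in all, and Pknox2 had 1.

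At 3 days of WM-1119, 8 of the 15 tested members passed the test at an adjusted p under 0.05, 3 higher and 5 lower, where 24.4% of all 11997 genes tested passed, 11.8% higher and 12.7% lower. At 6 days 9 passed, 4 higher and 5 lower, against 30.8% of all genes, 15.7% higher and 15.1% lower. The median log2 fold change of the tested members was 0.02 at 3 days and -0.10 at 6 days, against 0.0016 and -0.0037 over all genes tested. In the edgeR quasi-likelihood test 7 members passed at both times and in the same direction, 4 lower (Hoxb3, Hoxb7, Hoxb8 and Pknox1) and 3 higher (Hoxc4, Pbx2 and Pbx3). The share of all genes that passed at both times was not counted, so this number has no background to be read against. Tgif2 passed at 3 days alone, Meis2 and Tgif1 at 6 days alone, and Hoxb4, Hoxb5, Hoxb6, Hoxb9 and Pbx4 at neither time. Hoxc4 is 1 of the members counted as higher at each time, although it entered through its WM-1119 libraries. In bulk RNA, fewer cells expressing a gene and less RNA per cell cannot be told apart.

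**Figure D1:**
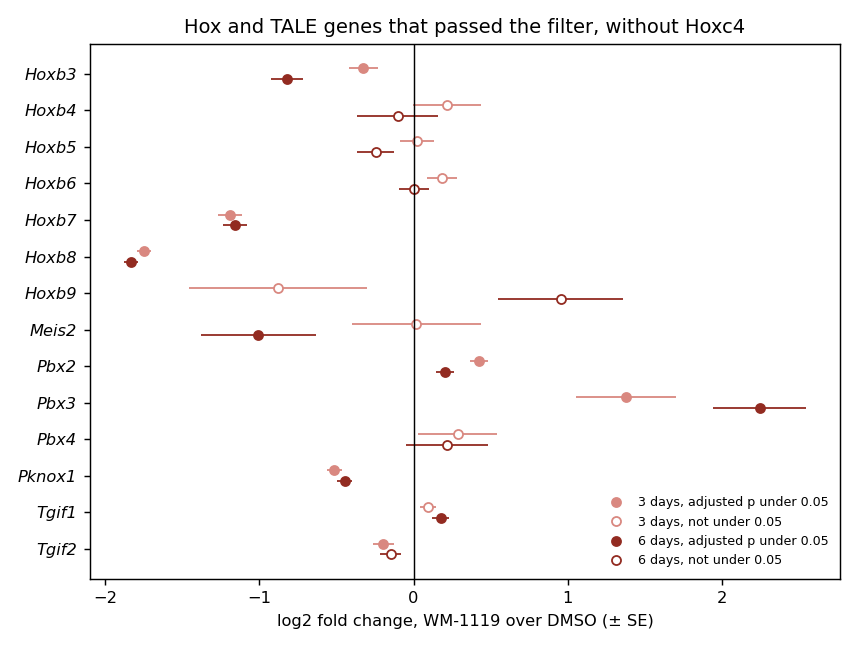
Log2 fold change of WM-1119 over DMSO (x axis, ± SE of the model, n = 3 libraries a group) for 14 of the 15 tested members at 3 and 6 days; filled points had an adjusted p under 0.05. Hoxb8 lies farthest to the left at -1.75 and -1.83 and Pbx3 farthest to the right at 1.38 and 2.25; Hoxc4 is left out because its DMSO libraries held no counts.

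Hoxb8, a factor that blocks maturation of myeloid progenitors when it is forced to stay on in mouse cells, was the member with the highest level per length in DMSO cultures and, of the 15 tested members, the one that fell most. The gene lies at chr11:96279401-96285325 (mm10, + strand). At 3 days it had 51.9, 51.1 and 51.1 CPM in WM-1119 cultures, against 178.5, 174.5 and 164.3 CPM in DMSO cultures. The 6-day cultures had 50.0, 52.6 and 52.1 CPM with WM-1119, against 182, 188.5 and 181 CPM with DMSO. Every WM-1119 library stood below every DMSO library, and all 6 of them lay between 50.0 and 52.6 CPM. Hoxb8 was 3.36-fold lower with WM-1119 at 3 days (log2 fold change -1.75 ± 0.05, SE; adjusted p = 9.82e-17, edgeR quasi-likelihood test) and 3.57-fold lower at 6 days (-1.83 ± 0.05; adjusted p = 2.30e-17).

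Hoxb7, the next gene in the cluster and a regulator of cell growth in several tumour types, fell with it. It had 23.8, 19.9 and 19.5 CPM with WM-1119, against 48.4, 48.8 and 46.4 CPM with DMSO at 3 days. At 6 days the values were 18.8, 23.0 and 22.6 CPM with WM-1119, against 47.6, 47.4 and 48.8 CPM with DMSO. The groups did not overlap at either time, and Hoxb7 fell 2.28-fold at 3 days and 2.23-fold at 6 days (log2 fold changes -1.19 ± 0.08 and -1.16 ± 0.08, SE; adjusted p = 1.93e-10 and 1.69e-10). Under each alternative tried the log2 fold change of Hoxb8 stayed between -1.86 and -1.72 and that of Hoxb7 between -1.28 and -1.08.

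Hoxb6 and Hoxb5, the next genes along the cluster, did not pass the test. Hoxb6 had 29.1, 26.9 and 25.4 CPM with WM-1119, against 22.9, 23.7 and 25.1 CPM with DMSO at 3 days. Its 3 treated libraries stood above the controls there, but the difference did not pass (log2 fold change 0.19 ± 0.10, SE; 95% interval -0.01 to 0.38; adjusted p = 0.175). At 6 days it averaged 20.7 ± 1.39 CPM with WM-1119 and 20.5 ± 3.32 CPM with DMSO (SD, n = 3 each), with overlapping groups and an interval of the log2 difference from -0.20 to 0.21. Hoxb5 averaged 9.90 ± 1.01 CPM with WM-1119 and 9.80 ± 0.284 CPM with DMSO at 3 days, and 6.69 ± 0.454 and 7.86 ± 0.785 CPM at 6 days. Its groups overlapped at both times (adjusted p = 0.911 and 0.118), and the 6-day interval of the log2 difference ran from -0.49 to -0.0035. The 6-day difference passed as lower without DMSO replicate 3 of 6 days (adjusted p = 0.0477).

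Hoxb4, known for expanding blood stem cells when overexpressed, had 3.95, 4.26 and 4.72 CPM with WM-1119, against 3.62, 3.43 and 4.09 CPM with DMSO at 3 days. After 6 days the values were 1.86, 2.09 and 2.58 CPM with WM-1119, against 2.61, 3.15 and 1.18 CPM with DMSO. The groups overlapped at both times and neither difference passed (log2 fold changes 0.22 ± 0.22 and -0.10 ± 0.26, SE; adjusted p = 0.523 and 0.800). DMSO replicate 3 at 6 days stood lowest of all 12 libraries. Without the 5 libraries with Col1a1 the 6-day difference turned positive, at 1.13 (adjusted p = 0.0605), and there it compares 1 library with 1 library.

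Hoxb3, another stem and progenitor cell factor, fell at both times. It had 14.9, 16.9 and 16.0 CPM with WM-1119, against 21.4, 18.2 and 20.5 CPM with DMSO at 3 days. At 6 days it had 10.3, 10.4 and 10.6 CPM with WM-1119, against 20.6, 18.3 and 16.1 CPM with DMSO. The groups were separate at both times, with log2 fold changes of -0.33 ± 0.09 and -0.82 ± 0.10 (SE; adjusted p = 0.0142 and 1.495e-06). The 3-day call was lost without WM-1119 replicate 1 of 3 days (adjusted p = 0.0610) or DMSO replicate 1 of 3 days (0.0817); over all alternatives the adjusted p ran from 0.00629 to 0.0817. In GENCODE M21, 52.9% of the exon bases of Hoxb3 also lie in exons of the antisense gene Hoxb3os, and with a strand setting not given in the sources used here, reads of the pair cannot be told apart. No exon base of Hoxb4, Hoxb6, Hoxb7, Hoxb8 or Hoxb9 was shared with another gene, and 3.59% of those of Hoxb5 were antisense to Hoxb5os.

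Hoxb9, at the other side of Hoxb8, was near the floor of detection, with 0.162, 0.105 and 0.210 CPM with WM-1119 and 0.186, 0.338 and 0.341 CPM with DMSO at 3 days. At 6 days it had 0.599, 0.622 and 0.748 CPM with WM-1119, against 0.464, 0.177 and 0.284 CPM with DMSO. The 6-day groups were separate but the difference did not pass (log2 fold change 0.96 ± 0.41, SE; adjusted p = 0.0799). It passed as higher without DMSO replicate 1 of 6 days (adjusted p = 0.0328) and with limma voom (0.0411). Hoxb2 had 11 counts and Hoxb13 2 counts over the 12 libraries, and Hoxb1 had none.

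Levels of different genes were compared per length as RPKM, the CPM divided by the deposited gene length in kilobases. In DMSO cultures of 3 days Hoxb8 led the Hoxb genes with 65.2 ± 2.76 RPKM, ahead of Hoxb7 with 37.7 ± 1.03 and Hoxb6 with 18.1 ± 0.827 RPKM (SD, n = 3). With WM-1119 at 3 days the 3 genes stood close together. Hoxb6 had 20.5 ± 1.42 RPKM, Hoxb8 19.4 ± 0.166 RPKM and Hoxb7 16.6 ± 1.90 RPKM, and Hoxb6 and Hoxb8 did not differ beyond their spread. Below them Hoxb5 had 5.22 ± 0.533 RPKM with WM-1119 and 5.17 ± 0.150 RPKM with DMSO, and Hoxb3 4.28 ± 0.277 and 5.38 ± 0.453 RPKM, neighbours that lay within their spread of each other in DMSO cultures. Hoxb4 followed with 1.68 ± 0.152 RPKM with WM-1119 and 1.45 ± 0.132 RPKM with DMSO. Hoxb8 took 38.4% to 40.3% of all Hox counts of a library with WM-1119 and 60.7% to 62.6% with DMSO at 3 days, and 42.8% to 44.7% with WM-1119 and 63.8% to 66.7% with DMSO at 6 days.

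**Figure D2:**
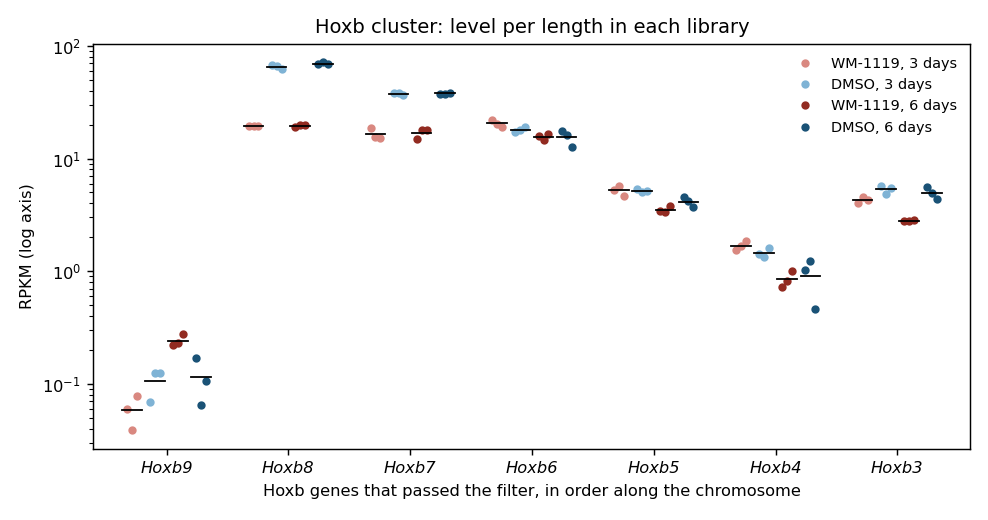
RPKM on a log axis of the 7 Hoxb genes that passed the filter, ordered along the chromosome by gene end; points are libraries and bars are group means (n = 3). The Hoxb8 and Hoxb7 points of both WM-1119 groups lie below those of the DMSO groups, while the Hoxb6 points of all 4 groups lie between 12.7 and 22.0 RPKM.

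The sequence at the start of Hoxb8, the tested member that fell most, is shown beside that of Hoxb4. Hoxb4 is a gene of the same cluster that did not pass the test. Hoxb7, Hoxb6 and Hoxb5 lie between them and are not printed. The 300 bases around 1 RefSeq start (250 before, 50 after, GRCm38.p6, the build of mm10) are given. They are chr11:96281655-96281954 for Hoxb8 and chr11:96318017-96318316 for Hoxb4, both on the + strand, 5′ to 3′. Capitals mark matches to TGATNNAT, the consensus bound by HOX and PBX together, searched on both strands.
Hoxb8: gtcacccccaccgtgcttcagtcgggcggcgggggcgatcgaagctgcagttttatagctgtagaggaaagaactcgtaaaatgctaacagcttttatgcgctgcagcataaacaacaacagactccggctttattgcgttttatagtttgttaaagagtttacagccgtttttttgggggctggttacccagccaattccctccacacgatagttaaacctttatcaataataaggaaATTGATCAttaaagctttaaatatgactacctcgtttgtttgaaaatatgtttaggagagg
Hoxb4: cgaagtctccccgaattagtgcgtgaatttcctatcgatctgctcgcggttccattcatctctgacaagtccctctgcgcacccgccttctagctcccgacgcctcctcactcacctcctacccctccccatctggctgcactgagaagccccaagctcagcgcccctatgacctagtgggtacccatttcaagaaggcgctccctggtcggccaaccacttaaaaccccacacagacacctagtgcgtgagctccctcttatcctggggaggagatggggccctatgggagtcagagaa
Hoxb8 held 1 match, whose first base lies at position -11 from the start, and Hoxb4 held none. A match was present in 8.85% of all 32851 promoters of this length in RefSeq, and of the 35 promoters found for 29 members 5 did. The core bound by MEIS and PKNOX, TGACAG, was in neither sequence on either strand and in 19.2% of all promoters. A match is a description of the letters and no binding was measured. Hoxb8 held 13 CG dinucleotides and Hoxb4 14, against a median of 7.

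Hoxb8 messenger RNA is also known in the mouse as a target that the microRNA miR-196a cleaves, through a site of nearly complete pairing. The mature sequence (RefSeq; chr11:96265187-96265208, GRCm38.p6, + strand) is shown with its seed, bases 2 to 8, in capitals, and the site in the 3′ untranslated region (GENCODE M21; chr11:96284888-96284909, + strand) with the bases opposite the seed in capitals.
miR-196a: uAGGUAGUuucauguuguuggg
site: cccaacaacatgaaACTGCCTa
Of the 22 positions 21 formed Watson-Crick pairs and 1 a G:U pair. The mature microRNA was not measured by these poly(A) libraries. The entry of Mir196a-1, the precursor gene at the position given above, lies between Hoxb9 and Hoxb13 and had 25 counts over the 12 libraries. It had 1, 3 and 1 counts with WM-1119 and 0, 2 and 1 with DMSO at 3 days. At 6 days it had 3, 2 and 4 with WM-1119, against 6, 1 and 1 with DMSO. These counts are too few to compare. The entry of Mir196a-2, in the Hoxc cluster, had 0 counts in every library. The long non-coding gene Gm53 (chr11:96251660-96264484), in the same interval, had 178 counts; it did not pass at 3 days (log2 fold change -0.07 ± 0.43, SE; adjusted p = 0.930) and rose at 6 days (1.06 ± 0.36; adjusted p = 0.0269). Mir10a, between Hoxb4 and Hoxb5, had 54 counts and was not tested.

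Hoxc4, the only Hoxc gene that passed the filter, was detected in every WM-1119 library and in no DMSO library. It had 14, 15 and 7 counts with WM-1119 and 0, 0 and 0 with DMSO at 3 days, and 25, 39 and 30 counts with WM-1119 and 0, 0 and 0 with DMSO at 6 days. In CPM this was 0.757, 0.523 and 0.367 with WM-1119 at 3 days and 1.497, 2.20 and 2.04 at 6 days. The DMSO level was set to a floor of 3 counts over the 3 libraries, and the WM-1119 counts were taken as observed. Hoxc4 was then 10.9-fold higher with WM-1119 at 3 days and 56.3-fold higher at 6 days. In the edgeR quasi-likelihood test the adjusted p was 1.53e-04 at 3 days and 5.38e-08 at 6 days. These p-values belong to a gene that entered the test through its WM-1119 libraries. In the fit of the 3-day groups alone Hoxc4 did not pass the filter and was not tested. In the fit without the filter, which takes every gene with a count, the adjusted p was 1.70e-06 at 3 days and 5.91e-15 at 6 days. The floor covers the counting error of the DMSO zeros only, not that of the WM-1119 counts and not the spread between libraries. The level with WM-1119 remained low per length, at 0.965 ± 0.187 RPKM at 6 days (SD, n = 3), below the 19.5 ± 0.526 RPKM of Hoxb8 in the same cultures.

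Fibroblast transcripts were measured beside Hoxc4. Of 15 fibroblast markers 3 exceeded 1 CPM in some library with WM-1119 and 1 with DMSO at 3 days, and 9 with WM-1119 and 6 with DMSO at 6 days. Their summed level was 12.2 to 16.2 CPM with WM-1119 and 18.1 to 21.4 CPM with DMSO at 3 days, and 11.7 to 57.8 CPM with WM-1119 and 18.2 to 36.4 CPM with DMSO at 6 days; Pdgfra was at 0 in WM-1119 cultures of 3 days and Lum in those of 6 days. Much of this sum was Fbn1, a microfibril protein gene, which fell at both times, with means of 10.1 CPM with WM-1119 and 16.9 CPM with DMSO at 3 days and 12.3 CPM with WM-1119 and 17.4 CPM with DMSO at 6 days. The other 7 tested markers, Col1a1 among them, had log2 fold changes of 0.45 to 1.73 at 3 days and 0.96 to 1.54 at 6 days, and none of these passed. Hoxc4 had 30 counts in WM-1119 replicate 3 of 6 days, where Col1a1 was at 0.408 CPM, and 0 counts in DMSO replicate 1 of 6 days, where Col1a1 was at 6.10 CPM. In the 7 libraries with Col1a1 at or under 1 CPM, Hoxc4 had 14 and 7 counts with WM-1119 and 0, 0 and 0 with DMSO at 3 days, and 30 with WM-1119 and 0 with DMSO at 6 days.

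**Figure D3:**
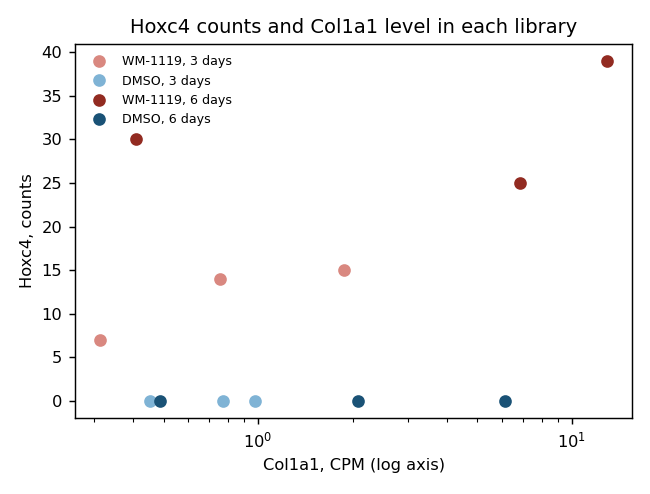
Hoxc4 counts (y axis) against Col1a1 in CPM (x axis, log scale), 1 point a library, coloured by group. All 6 DMSO libraries lie at 0 counts across Col1a1 levels from 0.454 to 6.10 CPM, and the 6 WM-1119 libraries lie between 7 and 39 counts.

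The sequence at 1 RefSeq start of Hoxc4 (chr15:103034145-103034444, + strand, GRCm38.p6, the same window) is shown because this gene had counts with the inhibitor alone; it held 9 CG dinucleotides and no match to TGATNNAT or TGACAG.
Hoxc4: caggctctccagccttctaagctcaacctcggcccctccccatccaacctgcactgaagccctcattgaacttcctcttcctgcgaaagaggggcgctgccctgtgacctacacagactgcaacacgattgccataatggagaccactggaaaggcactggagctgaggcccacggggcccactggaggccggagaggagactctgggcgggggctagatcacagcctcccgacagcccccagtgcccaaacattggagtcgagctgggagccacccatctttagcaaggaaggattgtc

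The other Hoxc genes stayed under the filter and were seen mainly with WM-1119. The 9 Hoxc members summed to 62 counts with WM-1119 and 0 with DMSO at 3 days, and to 162 with WM-1119 and 12 with DMSO at 6 days. Hoxc6 had 2, 7 and 2 counts with WM-1119 and 0, 0 and 0 with DMSO at 3 days, and 8, 8 and 5 with WM-1119, against 3, 1 and 3 with DMSO at 6 days. Hoxc9 had 0, 4 and 3 with WM-1119, against 0, 0 and 0 with DMSO at 3 days, and 10, 9 and 7 with WM-1119, against 2, 0 and 0 with DMSO at 6 days. Both genes, which pattern the thoracic body axis in mouse embryos, showed separate groups at 6 days. Hoxc10 summed to 5 counts with WM-1119 and 0 with DMSO at 3 days, and Hoxc13, at the posterior end of the cluster, to 6 with WM-1119 and 0 with DMSO at 6 days. Hoxc5 had 5 counts in all, Hoxc8 2, Hoxc11 2 and Hoxc12 none.

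Of the Hoxa genes, Hoxa7 held 32 of the 35 counts. It had 3, 9 and 2 counts with WM-1119 and 0, 1 and 0 with DMSO at 3 days, and 0, 8 and 6 with WM-1119, against 3, 0 and 0 with DMSO at 6 days, so that its groups were separate at 3 days and overlapped at 6 days. Hoxa9 and Hoxa10, the Hoxa genes most often raised in acute leukaemia, had no count in any library, which with 3 counts as the limit a count of 0 allows stands for a level of at most 0.0453 CPM over the WM-1119 libraries and 0.0501 CPM over the DMSO libraries at 3 days. Hoxa5 had 2 counts and Hoxa3 1, and the other 7 Hoxa members had none. Of the Hoxd genes, Hoxd8 had 3 counts, and Hoxd3, Hoxd4 and Hoxd9 had 1 each. Mira, a long non-coding gene between Hoxa6 and Hoxa7 (chr6:52214491-52215288) chosen here after its values were seen, had 4, 2 and 3 counts with WM-1119 and 0, 0 and 0 with DMSO at 3 days, and 6, 3 and 3 with WM-1119, against 0, 0 and 0 with DMSO at 6 days.

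In an edgeR quasi-likelihood fit without the filter on low counts, Hoxc6 was the untested member that passed at 3 days (adjusted p = 0.0157). At 6 days Hoxc9 (1.43e-04), Hoxc10 (0.0119), Hoxc6 (0.0136), Hoxa7 (0.0234) and Hoxc13 (0.0413) passed as higher and Meis3 (0.00168) as lower. In that fit 2903 of 17619 genes passed at 3 days and 3710 at 6 days. DMSO replicate 1 of 6 days, the deepest library and one with Col1a1 at 6.10 CPM, held 3 of the 7 Hoxc6 counts, both Hoxc9 counts and all 3 Hoxa7 counts of DMSO at 6 days. WM-1119 replicate 3 of 6 days, with Col1a1 at 0.408 CPM, had 5 Hoxc6, 7 Hoxc9, 3 Hoxc10 and 6 Hoxa7 counts. The part of fibroblast transcripts in these low counts was not tested.

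**Figure D4:**
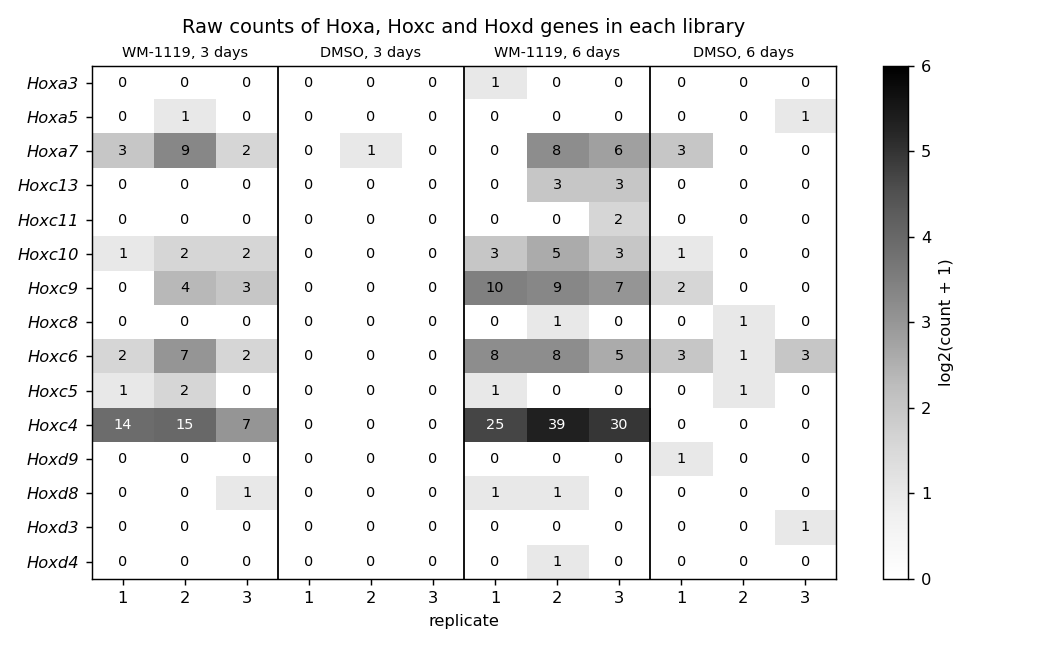
Raw counts of each Hoxa, Hoxc and Hoxd gene with at least 1 count, 1 row a gene and 1 column a library, shaded by log2(count + 1). Counts gather in the 6 WM-1119 columns, with Hoxc4 the darkest row at 7 to 39 counts there and 0 in every DMSO column.

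Among the TALE genes, Pbx3, a partner of HOXA9 in leukaemia, rose most. It had 1.95, 1.78 and 1.52 CPM with WM-1119, against 0.836, 0.290 and 0.908 CPM with DMSO at 3 days. After 6 days the values were 2.10, 3.05 and 2.79 CPM with WM-1119, against 0.610, 0.665 and 0.366 CPM with DMSO. The groups were separate at both times, with a rise of 2.60-fold at 3 days (log2 fold change 1.38 ± 0.32, SE; adjusted p = 0.00289) and 4.75-fold at 6 days (2.25 ± 0.30; adjusted p = 4.94e-06). Pbx3 stayed low even so, at 1.11 ± 0.207 RPKM with WM-1119 and 0.229 ± 0.0666 RPKM with DMSO at 6 days (SD, n = 3 each).

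Pbx2, the broadly expressed and more abundant family member, had 52.8, 49.8 and 50.4 CPM with WM-1119, against 38.4, 38.1 and 37.3 CPM with DMSO at 3 days. The 6-day cultures had 44.4, 44.2 and 44.2 CPM with WM-1119, against 39.6, 40.3 and 35.5 CPM with DMSO. It rose 1.34-fold and 1.15-fold (log2 fold changes 0.43 ± 0.06 and 0.20 ± 0.06, SE; adjusted p = 1.05e-05 and 0.0116), with separate groups each time. The 6-day call was lost without DMSO replicate 3 of 6 days (adjusted p = 0.0582) and without the 5 libraries with Col1a1 (0.0684); the adjusted p ran from 0.00831 to 0.0684 over the alternatives. Of its exon bases 6.24% are shared with Gpsm3 on the same strand. Pbx4, known for its role in the testis, did not pass at either time, with 1.66 ± 0.134 CPM with WM-1119 and 1.37 ± 0.105 CPM with DMSO at 3 days and 1.47 ± 0.0789 and 1.254 ± 0.469 CPM at 6 days (adjusted p = 0.464 and 0.582; errors are SD, n = 3 each).

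Pknox1, which encodes PREP1, a PBX partner needed for normal lymphoid development in the mouse, was the TALE gene with the most counts and fell at both times. It had 92.3, 90.7 and 87.5 CPM with WM-1119, against 133.7, 128.5 and 124 CPM with DMSO at 3 days. The 6-day cultures had 96.7, 97.3 and 100.8 CPM with WM-1119, against 135, 126 and 140.3 CPM with DMSO. All treated libraries stood below all controls, with falls of 1.43-fold and 1.36-fold (log2 fold changes -0.52 ± 0.05 and -0.45 ± 0.05, SE; adjusted p = 6.09e-08 and 2.54e-07). Under every alternative tried Pknox1 passed at both times.

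Meis2, the tested MEIS gene, was near the floor, with 0.378, 0.384 and 0.629 CPM with WM-1119 and 0.511, 0.579 and 0.227 CPM with DMSO at 3 days, where the groups overlapped. At 6 days it had 0.359, 0.622 and 0.340 CPM with WM-1119, against 0.805, 1.06 and 0.894 CPM with DMSO, which were separate (log2 fold change -1.01 ± 0.37, SE; adjusted p = 0.0446). The 6-day call was lost under 13 of the alternatives, where the adjusted p ran up to 0.285. Without each single library of the 6-day groups it was lost for 5 of the 6: WM-1119 replicates 1 (0.148) and 3 (0.154) and DMSO replicates 1 (0.0549), 2 (0.116) and 3 (0.0596). Leaving out libraries of 3 days, which enter the shared spread, also ended it for WM-1119 replicates 1 (0.0546), 2 (0.0535) and 3 (0.0510) and DMSO replicate 1 (0.0543). Meis3, under the filter, had 3, 9 and 5 counts with WM-1119 and 10, 6 and 9 with DMSO at 3 days, and 1, 5 and 1 with WM-1119, against 36, 6 and 23 with DMSO at 6 days, with CPM that overlapped between the groups at both times.

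The TGIF genes moved little. Tgif1 had 54.4, 53.1 and 57.5 CPM with WM-1119, against 49.3, 47.7 and 48.8 CPM with DMSO at 6 days, a rise of 1.13-fold (log2 fold change 0.18 ± 0.05, SE; adjusted p = 0.0170); at 3 days it did not pass (0.09 ± 0.05; adjusted p = 0.236). The 6-day call was lost without WM-1119 replicate 3 of 6 days (0.0976), without DMSO replicate 2 of 6 days (0.0581) and without the libraries with Col1a1 (0.166). Tgif2 fell 1.15-fold at 3 days, with 27.4, 26.9 and 26.6 CPM with WM-1119 against 28.6, 31.3 and 32.9 CPM with DMSO (log2 fold change -0.20 ± 0.07; adjusted p = 0.0349), and did not pass at 6 days (-0.15 ± 0.07; adjusted p = 0.0954). The 3-day call was lost under 10 of the alternatives, up to an adjusted p of 0.143, among them leaving out WM-1119 replicate 1 (0.0570), 2 (0.0969) or 3 (0.0992) or DMSO replicate 2 (0.0787) or 3 (0.143) of 3 days. Exons of 2 antisense genes cover 61.6% of the Tgif2 exon bases, and, as for Hoxb3, without the strand setting of the counting their reads cannot be told apart.

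**Figure D5:**
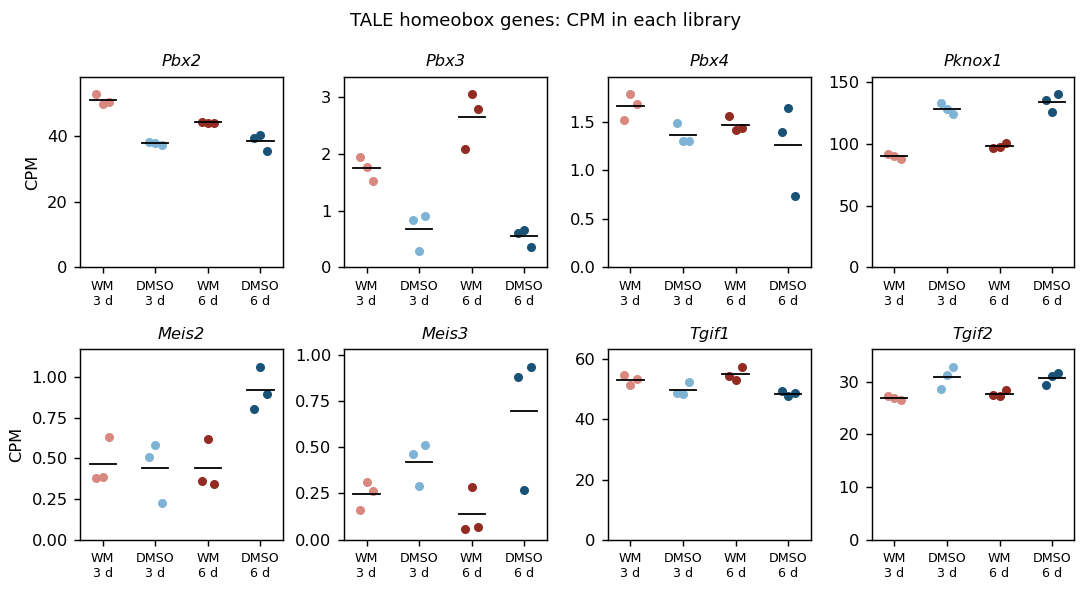
CPM of 8 TALE genes in each library (points) with group means (bars, n = 3), WM-1119 left of DMSO at each time; each panel has its own axis from 0. Pknox1 stands lower and Pbx3 and Pbx2 higher with WM-1119 at both times, and the Meis2 points are separate at 6 days, where the Meis3 points overlap.

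Whether the effect differed between times was tested as the 6-day effect minus the 3-day effect. Hoxc4 gave no estimate here, since its DMSO libraries held no counts at either time. None of the other 14 tested members passed, where 0.725% of all genes did, 0.400% higher and 0.325% lower. At an unadjusted p under 0.05 there were 3, Hoxb3, Hoxb9 and Pbx2. The share of all genes at that looser threshold was not counted. Hoxb8 differed by -0.09 ± 0.07 on the log2 scale (SE; 95% interval -0.22 to 0.05), Hoxb7 by 0.03 ± 0.11, Pknox1 by 0.07 ± 0.07 and Pbx3 by 0.87 ± 0.46 (adjusted p = 0.814, 0.972, 0.882 and 0.665). Hoxb3 differed by -0.50 ± 0.14 (adjusted p = 0.148), and passed without DMSO replicate 3 of 6 days (0.0215) and without the filter (0.0471). DESeq2 and limma voom called no member.

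Within the WM-1119 cultures 7 of the 15 members differed between 6 and 3 days, where 5.62% of all genes did, 2.33% higher and 3.29% lower. Lower at 6 days were Hoxb3 (log2 fold change -0.62 ± 0.10, SE), Hoxb4 (-0.99 ± 0.25), Hoxb5 (-0.58 ± 0.12), Hoxb6 (-0.39 ± 0.10) and Pbx2 (-0.20 ± 0.06), and higher were Hoxb9 (2.07 ± 0.50) and Hoxc4 (1.80 ± 0.33). Hoxb7 and Hoxb8 did not pass (0.03 ± 0.08 and 0.01 ± 0.05). In DMSO cultures no member passed, where 0.809% of all genes did, 0.358% higher and 0.450% lower. Hoxb4, Hoxb5, Hoxb6, Hoxb8 and Meis2 had an unadjusted p under 0.05 there, a threshold at which all genes were not counted. Hoxb4 and Hoxb5 were lower at 6 days in DMSO cultures too, by -0.67 ± 0.23 and -0.31 ± 0.11. The time comparison within WM-1119 rests on few libraries. It gave 3 members without WM-1119 replicate 2 of 3 days, where 309 of 12068 genes passed, against 674 of 11997 with all libraries. There were 4 members without replicate 1 of 6 days (362 of 12184 genes) and 3 without replicate 2 of 6 days (391 of 12182 genes). Without all 5 libraries with Col1a1 each 6-day group held 1 library, so calls between times cannot be read there. In that fit Hoxb4 (-1.65) and Hoxb6 (-0.51) were lower at 6 days in DMSO cultures, with replicate 3 as the only 6-day library. That library had the lowest Hoxb4 and Hoxb6 levels of all 12. The summed fibroblast marker level was 37.5, 57.8 and 11.7 CPM in WM-1119 replicates 1, 2 and 3 of 6 days, against 12.2 to 16.2 CPM at 3 days, and 36.4, 27.2 and 18.2 CPM in DMSO replicates 1, 2 and 3 of 6 days, against 18.1 to 21.4 CPM at 3 days. It was thus above the 3-day libraries in replicates 1 and 2 but not in replicate 3, and none of the 8 tested markers passed between times in either treatment. Its part in these differences was not tested.

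Genes known to control Hox expression were described from a list of 38, of which 35 passed the filter. The test called 4 higher and 4 lower at the first time and 5 higher and 7 lower at the second, against 24.4% and 30.8% of all genes called in either direction, so that these counts lie near the background, with medians of 0.03 and -0.01 on the log2 scale, against 0.0016 and -0.0037 over all genes. Kdm5b, which removes methyl groups from lysine 4 of histone H3, fell most, with 5.48 ± 0.423 CPM with WM-1119 and 17.7 ± 1.85 CPM with DMSO at 3 days (SD, n = 3 each), and 4.34 ± 0.237 and 17.5 ± 1.67 CPM at 6 days. The 3-day difference was -1.69 ± 0.11 on the log2 scale (SE; adjusted p = 1.89e-10). Ezh2, the catalytic subunit of the Polycomb complex that silences Hox clusters, fell by 0.36 and 0.35 on the log2 scale. Men1, a partner of the MLL methyltransferases, fell by 0.16 and 0.26, and Brpf3, a scaffold of acetyltransferase complexes, rose by 0.35 and 0.23. The targets of WM-1119 did not pass at either time, with log2 fold changes of 0.01 ± 0.05 and 0.10 ± 0.05 for Kat6a and 0.06 ± 0.07 and -0.04 ± 0.07 for Kat6b.

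Of 26 genes known as targets of HOX and MEIS proteins in blood cells, 20 passed the filter. At 3 days 7 fell and none rose, and by 6 days 9 had fallen and 5 had risen, where 12.7% of all genes were lower and 11.8% higher at 3 days and 15.1% lower and 15.7% higher at 6 days, with medians of -0.05 and -0.12. Trib2, a MEIS1 target in leukaemia, fell most of those tested, with 27.7, 27.8 and 24.9 CPM with WM-1119 against 76.7, 72.6 and 74.5 CPM with DMSO at 3 days. At 6 days it had 10.3, 7.63 and 7.76 CPM with WM-1119, against 80.0, 73.1 and 70.9 CPM with DMSO (log2 fold changes -1.47 ± 0.07 and -3.12 ± 0.09, SE; adjusted p = 3.78e-12 and 7.50e-17). Its fall was larger at 6 than at 3 days, by a test of the difference (-1.65 ± 0.12; adjusted p = 2.04e-08). Gfi1, a zinc finger repressor, fell by 1.08 and 1.75, Sox4 by 0.46 and 0.47 and Myb, a progenitor cell factor, by 0.29 and 0.35 on the log2 scale.

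Of the 16 tested genes that flank the Hox clusters, 2 rose and 2 fell after 3 days, while 3 rose and 2 fell after 6 days, counts near the 24.4% and 30.8% called over all genes, with medians of 0.04 and 0.03. Skap1, an adaptor protein gene beside the Hoxb cluster, fell by 0.90 ± 0.13 and 1.03 ± 0.14 on the log2 scale (SE; adjusted p = 3.91e-05 and 6.39e-06). Skap2, its relative beside the Hoxa cluster, rose by 0.33 ± 0.05 and 0.42 ± 0.05 (adjusted p = 5.13e-05 and 1.18e-06). Snx10, near Skap2, rose by 0.31 and 0.35, and Cbx1, near the Hoxb cluster, fell by 0.14 and 0.16. None of the 7 other TALE genes on the list (Irx1 to Irx6 and Mkx) and none of the 10 listed non-coding genes of the clusters passed the filter.

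Other cell types were checked beside the Hox results, since Hox genes mark myeloid progenitors. Of 10 myeloid markers only Itgam and Csf1r exceeded 1 CPM, and Elane, S100a8, S100a9 and Ctsg were at 0 in all 4 groups. The summed myeloid level was 105 to 110.5 CPM with WM-1119 and 112 to 120.1 CPM with DMSO at 3 days, and 122 to 128 CPM with WM-1119 and 113 to 116 CPM with DMSO at 6 days. Csf1r, the receptor for a macrophage growth factor, rose by 2.14 and 2.25 on the log2 scale (adjusted p = 1.11e-07 and 3.09e-08). Itgam, the only other myeloid marker tested, fell at 3 days (log2 fold change -0.14, adjusted p = 0.0280) and did not pass at 6 days. Of the 13 tested B cell markers 1 was higher and 5 were lower at 3 days. Over all genes 11.8% were higher and 12.7% lower then. At 6 days 5 markers were higher and 4 lower, against 15.7% and 15.1% of all genes. Pax5, a B cell identity factor, fell by 0.47 and 0.58 on the log2 scale, Cd22, an inhibitory receptor gene, by 0.31 and 0.56 and Ebf1, an early B cell factor, by 0.37 and 0.29, while Cd79b, part of the B cell receptor, rose by 0.51 and 0.48.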

How the data were processed

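RNA from 12 samples was profiled with a stranded poly(A) kit, per the labels' protocols. The deposited table holds raw read counts per gene, made by the authors with featureCounts on mm10, per the submitters' processing notes (aligner, tool version and strand setting not given in the sources used here). Of 27179 entries 874 had no identifier and were left out (0.305% to 0.362% of a library's counts). Symbols came from RefSeq (25275 of 26305 matched). Counts of 11997 genes that passed filterByExpr were scaled by TMM and fitted in 1 edgeR 4.0.16 quasi-likelihood model (R 4.3.3) with 4 group means; p-values are two-sided, adjusted by Benjamini-Hochberg over all genes, threshold 0.05. An exact permutation of 3 against 3 libraries cannot go below p = 0.1. The common coefficient of variation was 5.69%. Code was tested on simulated data. The alternatives tried were upper-quartile and RLE scaling, no filter, 1 CPM in 3 libraries, DESeq2 1.42.0, limma voom 3.58.1, only the compared groups, a replicate block and each library left out; a block within 6 days and a fit lacking libraries where Col1a1 exceeded 1 CPM were added after seeing the data. All tested members were named, and up to 4 genes of each other list by smallest p, except where stated. Members and lists were chosen with earlier results of these data known. Same-numbered WM-1119 and DMSO samples of 6 days deviated together (correlations 0.193, 0.144 and 0.243); the labels state no pairing.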

Additional observations from a re-analysis of the deposited data

How the results depend on the processing

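Among the called members, Hoxb7, Hoxb8, Pbx3 and Pknox1 kept their direction and call at both times under every alternative that gave a value. Hoxc4 did so where it was tested, but it entered the filtered fits through its WM-1119 libraries. In the fit of the 3-day groups alone Hoxc4 did not pass the filter and was not tested. With no filter on low counts 14 of 34 members passed at 6 days (9 higher, 5 lower), where 3710 of 17619 genes passed. With the filter 9 of 15 members passed, where 3693 of 11997 genes did. For the change between times 1 member passed without the filter, where 121 genes did, against 0 with it, where 87 genes did. There are more members to test without a filter. Leaving out single libraries gave 0 to 1 members for the change between times and 3 to 8 for WM-1119 at 6 against 3 days, against 7. The fit with 1 member for the change called 217 of 12086 genes. Those with 3 members called 309 of 12068 and 391 of 12182 genes, against 674 of 11997 with all libraries. Without the 5 libraries with Col1a1 these were 0 for WM-1119 at 6 against 3 days and 2 for DMSO at 6 against 3 days, with fewer libraries in each fit. Each 6-day group held 1 library there, WM-1119 replicate 3 or DMSO replicate 3, so these counts cannot be read as effects of time. The replicate block kept 8 members at 3 days and 9 at 6 days. A block by replicate number within the 6-day libraries, for which the labels state no pairing, gave 9. Neither block ended a call of WM-1119 against DMSO. Reversed log2 fold changes, none of them called and their cause not tested, were these. With single libraries left out Hoxb5 at 3 days ran from -0.0597 to 0.0933, Meis2 at 3 days from -0.255 to 0.246, Hoxb6 at 6 days from -0.118 to 0.117, Hoxb4 at 6 days from -0.388 to 0.116 and Pbx4 at 6 days from -0.0245 to 0.399. Hoxb6 at 6 days was -0.0069 with no filter and -0.00074 with limma voom. Without the libraries with Col1a1 Hoxb5 was -0.0597 at 3 days and 0.0278 at 6 days, and Hoxb4 1.13 at 6 days. Depth limits the Hoxa, Hoxc and Hoxd genes, Hoxb9, Meis2 and Meis3, which had few counts a library.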
